A study of Saccharomyces cerevisiae with 24 samples.

Results

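The genes that make and break down trehalose were followed across 8 strains of baker's yeast (Saccharomyces cerevisiae) evolved for tolerance to biomass hydrolysate, a liquid made from plant cell walls that holds sugars together with compounds that inhibit growth. Members were the genes of the trehalose synthase complex and of the trehalases, found by symbol in the probe table. All 7 were present with 2 probes each, 14 of the 15744 probes and 7 of the 4069 genes tested. They are TPS1 (YBR126C), TPS2 (YDR074W), TPS3 (YMR261C) and TSL1 (YML100W) of synthesis, and NTH1 (YDR001C), NTH2 (YBR001C) and ATH1 (YPR026W) of breakdown. All had a value on every array.

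Trehalose is a disaccharide of 2 glucose units that yeast stores and that protects proteins and membranes during heat, drying, ethanol and other stresses. Tps1 joins UDP-glucose and glucose-6-phosphate to trehalose-6-phosphate, Tps2 removes the phosphate, and Tps3 and Tsl1 are regulatory subunits of the same complex. Nth1 is the main neutral trehalase of the cytosol, Nth2 its close paralog, and Ath1 the acid trehalase that acts on trehalose outside the cell. Many of these genes carry stress response elements and are induced together by the transcription factors Msn2 and Msn4, while protein kinase A lowers their expression and activates Nth1.

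Each array compared an adapted mutant with the reference strain of its lineage, named after a fluorescent protein. The DsRed reference served M1, PR-164, PR-338 and PR-438, the GFP reference served PG-132, PG-259 and PG-353, and the YFP reference served PY-231. Each mutant had 3 arrays, which makes 24. The labels name each strain only as an adaptive mutant and give no allele, and state growth in YNB minimal medium with no glucose and in hydrolysate at 1 g/mL, without saying whether these were 1 medium or separate ones. A replicate number is a slide that held 1 array of every mutant, and the mutant was in Cy5 on slides 1 and 3 and in Cy3 on slide 2. The series text calls the slides biological replicates, but the labels do not say how the cultures were kept apart, so p-values measure the spread between these arrays. Values below are log2 ratios of mutant over reference, centred so that the median named gene of an array is at 0, and a level of a gene is never set against that of another gene.

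Several arrays stand apart. On the array labelled PY-231 replicate 1 the probe pairs of a gene did not agree (Pearson r = -0.0098 across genes, which are not independent replicates), against 0.272 to 0.929 on the others. M1 differed from its reference in the mating gene MFA2 by 6.76 on replicate 2 and 6.26 on replicate 3, but was at 0.07 on replicate 1. The 187 genes of chromosome VIII lay 0.44 and 0.46 above all genes on PR-438 replicates 2 and 3 and 0.01 on replicate 1, whereas the array labelled PG-259 replicate 1 had 0.42 and PG-259 replicates 2 and 3 had 0.03 and 0.08. The arrays of slide 1 labelled M1, PR-438 and PG-259 thus go against the other arrays of their strain, and results are also given without slide 1. For slide 2, where the dyes were exchanged, the labels do not say which way the ratio runs. Mutant over reference is likely, because the mating genes of M1 had the same sign there as on slide 3. Over all genes the arrays of a mutant correlated at a median r of -0.31 between slides 1 and 2, -0.288 between slides 2 and 3 and 0.23 between slides 1 and 3, and at -0.108, 0.053 and -0.056 after each slide's mean was taken out.

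No member passed the test in any single mutant. Over the 56 combinations of member and mutant limma called 0 at an adjusted p under 0.05, and 8 had an unadjusted p under 0.05. Across all genes and mutants 0.181% were called and 9.94% had an unadjusted p under 0.05. The share of genes called was 0.246% in M1, 0.295% in PR-438, 0.123% in PR-338, 0.492% in PR-164, 0.0492% in PG-259, 0.0246% in PG-353, 0.221% in PG-132 and 0% in PY-231. At an unadjusted p under 0.05 there were 3 members in M1 (14.3% of genes), 2 in PR-438 (13.3%), and 1 each in PR-338 (10.7%), PR-164 (10.7%) and PG-259 (8.77%). There were 0 in PG-353 (6.34%), PG-132 (12.9%) and PY-231 (2.53%). The fitted values ran from -0.83 to 0.60 with an SE of 0.15 to 0.35. On single arrays 9 of the 56 combinations had all 3 values above 0 and 8 had all 3 below, beside 13.1% and 11.9% of combinations over all genes. In the mean of the 8 mutants TPS1 was the 1 member called, at -0.48 ± 0.13 (limma, adjusted p = 0.0197), where 13.3% of all genes were called, 11.2% lower and 2.09% higher. At an unadjusted p under 0.05 there were 3 members, beside 30% of genes. The fall of TPS1 rested on slide 2: it was 0.14 without that slide (adjusted p = 0.406) and 0.62 with the ratio of that slide turned (adjusted p = 0.000476). Over all genes, 1189 of 4069 were called in this mean without that slide and 1287 with it turned.

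**Figure D1:**
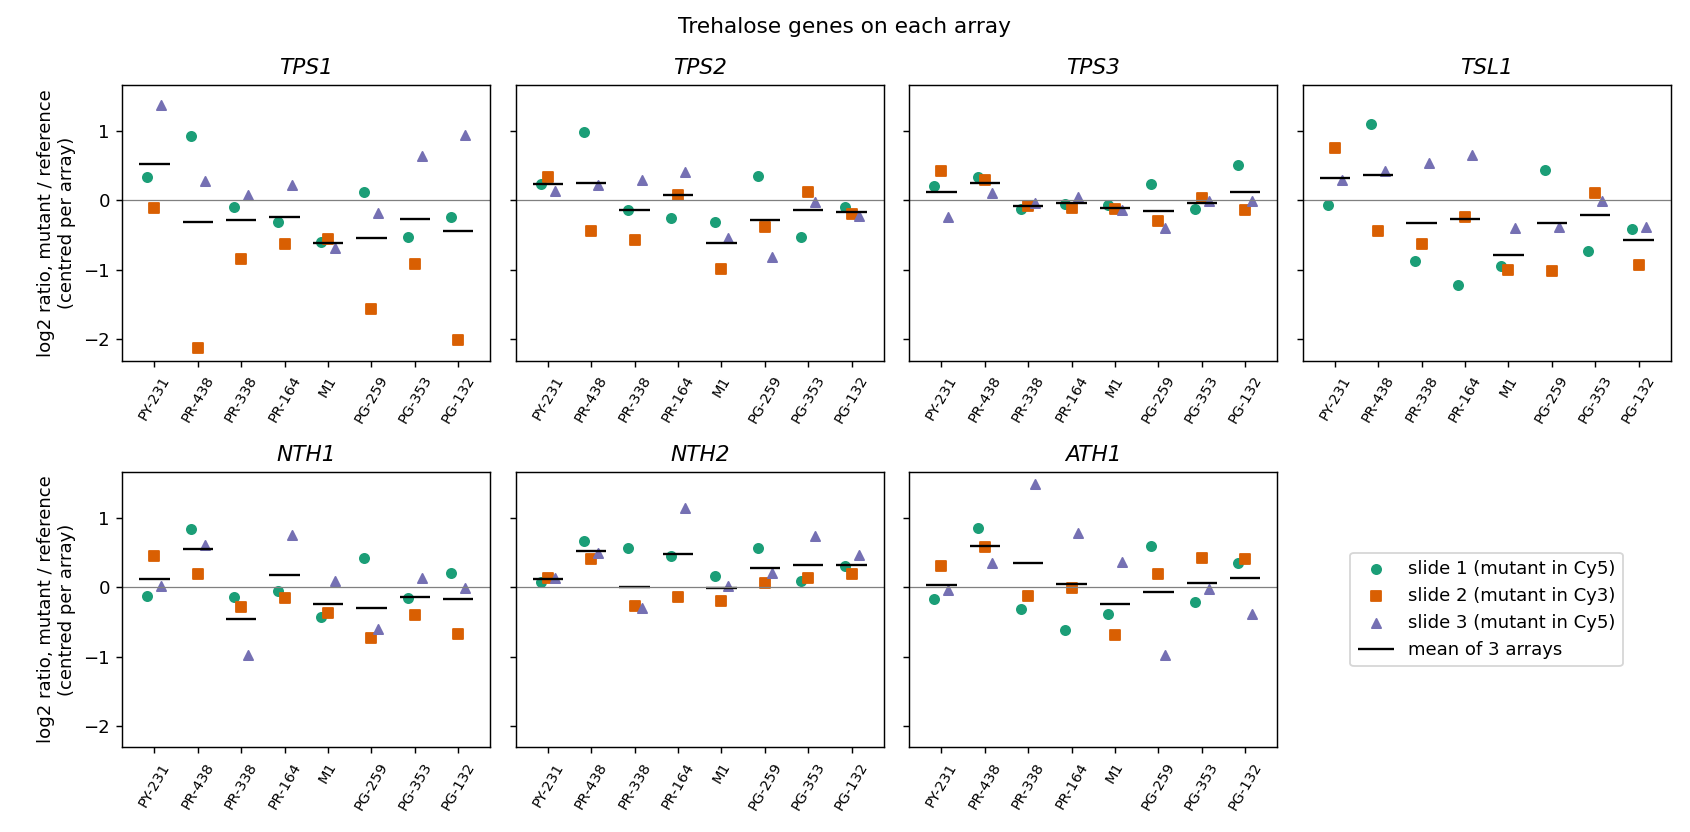
Centred log2 ratio of mutant over reference (y axis) of the 7 trehalose genes in the 8 mutants (x axis), with 1 point per array, shaped and coloured by slide, and a line at the mean of 3 arrays. TPS1 is lowest on slide 2 in 7 of the 8 mutants and TPS3 stays closest to 0, while M1 has all 3 arrays below 0 for TPS1, TPS2, TPS3 and TSL1. The slide 1 array labelled M1 goes against the other M1 arrays in its mating genes.

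TPS1, the trehalose-6-phosphate synthase, varied more between slides than between mutants. On slides 1, 2 and 3 it was at 0.92, -2.13 and 0.27 in PR-438, and at -0.25, -2.01 and 0.95 in PG-132. It was at 0.13, -1.57 and -0.18 in PG-259. All 3 strains had their lowest value on slide 2, and the arrays of a mutant did not keep a common side of 0. PG-353 was also lowest on slide 2, with smaller gaps, at -0.53, -0.91 and 0.63. PR-338 was at -0.10, -0.85 and 0.08. PR-164 was at -0.31, -0.63 and 0.23. PY-231 had 0.34, -0.11 and 1.37, again lowest on slide 2. M1 was the exception, with -0.59, -0.56 and -0.68, alike on all slides, though its slide 1 array goes against the others in its mating genes. The fit takes out a dye effect estimated over all mutants, which cannot be told apart from an effect of slide 2. It gave -0.82 ± 0.35 for M1 (limma, adjusted p = 0.299) and 0.32 ± 0.35 for PY-231, the only mutant with TPS1 above 0. The fitted value of M1 is lower than each of its arrays, and without the dye term it was -0.61.

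TPS1 was among the brighter genes, at the 91.9th percentile of estimated brightness, and genes near it in brightness were low on slide 2. There the 200 genes nearest to TPS1 in brightness had array medians from -2.06 to -0.86, around a median of -1.20. Those nearest to TPS2 and TSL1, at the 81.7th and 82.2nd percentile, were at -0.03 and -0.04. On slide 2 TPS1 itself ran from -2.13 to -0.11. It lay above these genes on 7 of the 8 arrays, by a median of 0.16. On slides 1 and 3 the same 200 genes had array medians from -0.32 to 0.70. Set against them, TPS1 lay lower on 5 of 8 arrays of slide 1, by a median of 0.30 over the slide, and higher on 6 of 8 arrays of slide 3, by a median of 0.39. M1 had TPS1 below genes of like brightness on slides 1 and 3, by 0.91 and 0.56, and above them by 0.58 on slide 2. After a loess on brightness within each array the mean of the 8 mutants was 0.05 (adjusted p = 0.838).

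**Figure D2:**
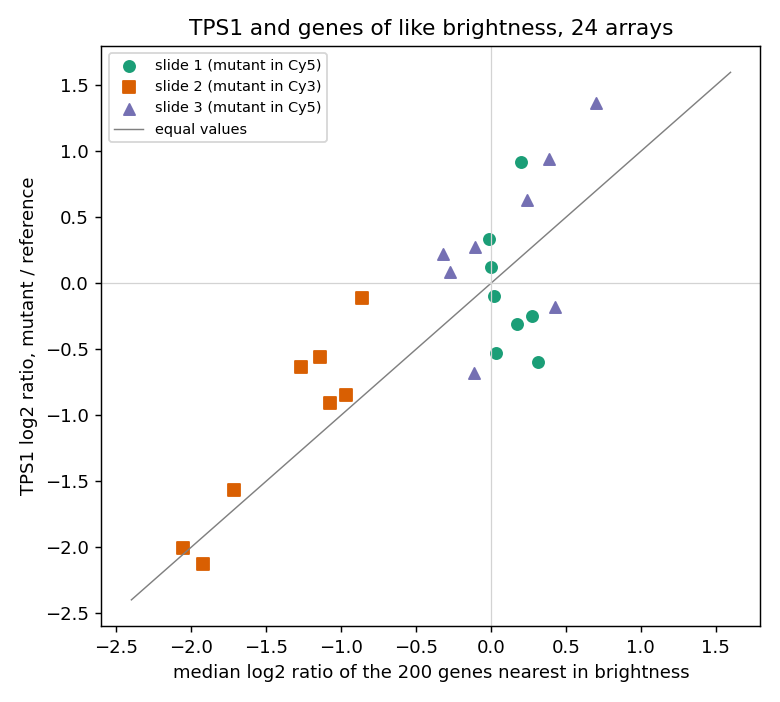
TPS1 log2 ratio (y axis) against the median log2 ratio of the 200 genes nearest to it in brightness (x axis) on the 24 arrays, marked by slide, with a line of equal values. The 8 arrays of slide 2 all lie below 0 on both axes, 7 of them above the line, by up to 0.75.

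TPS2, the trehalose-6-phosphate phosphatase, was low in M1 and above 0 on every array of PY-231. Its 3 arrays were at -0.31, -0.99 and -0.54 in M1, which gave -0.65 ± 0.23 (limma, adjusted p = 0.21), 0.635-fold of the reference. In PY-231 they were at 0.23, 0.34 and 0.13, with a fitted 0.19 ± 0.23. These sets do not overlap, but the difference of 0.85 ± 0.32 did not pass over all genes (adjusted p = 0.389). The sets include the slide 1 arrays labelled PY-231 and M1, which stand apart. On M1 replicate 2, the lowest array, the probes of TPS2 read -1.54 and -0.44. PG-132 was the other mutant with all arrays below 0, at -0.10, -0.20 and -0.22. PR-438 had 0.98, -0.44 and 0.22, so its fitted 0.21 rested on the array labelled replicate 1 and was -0.11 without slide 1. PG-259 had 0.34, -0.38 and -0.81, where again the array of slide 1 was the high one. PR-338 (-0.14, -0.57 and 0.30), PR-164 (-0.26, 0.08 and 0.40) and PG-353 (-0.53, 0.12 and -0.02) had arrays on both sides of 0.

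TSL1, a regulatory subunit and a gene known for strong stress induction, was below 0 on every array of M1 and PG-132. M1 was at -0.94, -1.0 and -0.40, a fitted -0.83 ± 0.34 (adjusted p = 0.269). PG-132 was at -0.42, -0.93 and -0.38, a fitted -0.63 ± 0.34 (adjusted p = 0.44). No mutant had all arrays above 0. The highest and lowest ranks of TSL1 among the genes of an array were reached in other strains. PY-231 had -0.07, 0.75 and 0.29, and 0.75 on replicate 2 was the 98.8th percentile of that array, while PR-338 had -0.87, -0.63 and 0.54, and -0.87 on replicate 1 was the 1st percentile. PR-438 was at 1.09, -0.44 and 0.42. PG-259 was at 0.44, -1.01 and -0.39, PR-164 at -1.22, -0.25 and 0.65 and PG-353 at -0.73, 0.11 and -0.01. In these strains the arrays of 1 mutant disagreed in sign. The probes of TSL1 differed by more than 1 on 3 arrays (PR-438 replicate 2, PR-338 replicate 3 and PG-259 replicate 3).

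TPS3, the other regulatory subunit, hardly moved. Its fitted values ran from -0.15 ± 0.15 in PG-259 to 0.24 ± 0.15 in PR-438, the smallest spread of the 7 genes. PR-438 had all 3 arrays above 0, at 0.34, 0.29 and 0.10. M1 at -0.06, -0.13 and -0.14 and PR-338 at -0.13, -0.08 and -0.04 had all below 0. The ranges do not overlap, but PR-438 exceeded M1 by 0.35 ± 0.21 and PR-338 by 0.33 ± 0.21, and neither difference passed (adjusted p = 0.488 and 0.997). The slide 1 arrays labelled PR-438 and M1, which go against the other arrays of their strain, are counted here. The probes of TPS3 followed each other less closely than those of most members (r = 0.264 over 24 arrays, beside 0.952 for TPS1). In the mean of the 8 mutants TPS3 was at 0.0061 ± 0.055.

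NTH1, the main neutral trehalase, was high in PR-438 and low in PR-338, mutants that share the DsRed reference. PR-438 had 0.84, 0.19 and 0.61, a fitted 0.50 ± 0.23 (adjusted p = 0.347). PR-338 had -0.14, -0.29 and -0.97, a fitted -0.51 ± 0.23 (adjusted p = 0.415). The arrays of the 2 strains do not overlap and the difference was 1.01 ± 0.32, with an unadjusted p of 0.00509 and an adjusted p of 0.997, so it did not pass over all genes. Among these arrays is PR-438 replicate 1, which goes against the other PR-438 arrays in its chromosome VIII genes. On PR-338 replicate 3 the probes of NTH1 read 0.10 and -2.04, and without that array, a choice made after seeing the data, PR-338 was at -0.21 ± 0.25. PG-259 was at 0.42, -0.72 and -0.61, PG-132 at 0.20, -0.68 and -0.02 and PG-353 at -0.16, -0.40 and 0.13. M1 was at -0.43, -0.37 and 0.09. PR-164 was at -0.06, -0.16 and 0.75, and PY-231 at -0.13, 0.45 and 0.02, so none of these 5 strains had all arrays on 1 side of 0.

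NTH2, the paralog of NTH1, was the member most often above 0. It was above 0 on all 8 arrays of slide 1, on 5 of slide 2 and on 7 of slide 3. All 3 arrays were above 0 in PR-438 (0.66, 0.40 and 0.49) and in PG-259 (0.56, 0.06 and 0.20). The same held for PG-132 (0.31, 0.18 and 0.46), PG-353 (0.09, 0.13 and 0.73) and PY-231 (0.07, 0.13 and 0.14). PR-164 had 0.45, -0.15 and 1.13 and its fitted 0.42 ± 0.18 was close to the 0.46 ± 0.18 of PR-438 (adjusted p = 0.374 and 0.251). M1 at 0.16, -0.21 and 0.02 and PR-338 at 0.57, -0.27 and -0.30 lay around 0. The mean of the 8 mutants was 0.20 ± 0.066, about 1.15-fold, and did not pass (adjusted p = 0.0561). It passed without slide 2, at 0.36 (adjusted p = 0.0133), and not without slide 1, at 0.20 (adjusted p = 0.126), nor after the loess on brightness, at 0.17 (adjusted p = 0.133). Without slide 2, 1189 of 4069 genes were called in that mean, beside 540 with all arrays. NTH2 had 1 spot without a usable ratio, on PG-353 replicate 2, where 0.13 came from the other probe. With spots at or below 0 set to the lowest ratio, which for NTH2 touches this 1 spot, the mean of the 8 mutants was -0.04 (adjusted p = 0.905). On PR-338 replicate 3 the probes of NTH2 read 1.28 and -1.89. Over 23 arrays its probes correlated at -0.11 with that array and at 0.55 without it, and without it the mean of the 8 mutants passed, at 0.22 (adjusted p = 0.0325).

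ATH1, the acid trehalase, was the dimmest member, at the 15.8th percentile of brightness. PR-438 was the only mutant with all arrays above 0, at 0.85, 0.58 and 0.35, a fitted 0.60 ± 0.33 (adjusted p = 0.456). PR-338 had -0.31, -0.12 and 1.48, where 1.48 came from 1 probe, as the other had no usable ratio. PG-259 ran from 0.60 through 0.18 to -0.97, PR-164 from -0.62 through -0.02 to 0.78 and M1 had -0.38, -0.69 and 0.36. PG-132 had 0.35, 0.41 and -0.38, PG-353 -0.22, 0.42 and -0.02, and PY-231 -0.16, 0.31 and -0.04. No mutant had all arrays below 0, and the mean of the 8 mutants was 0.12 ± 0.12 (adjusted p = 0.561).

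**Figure D3:**
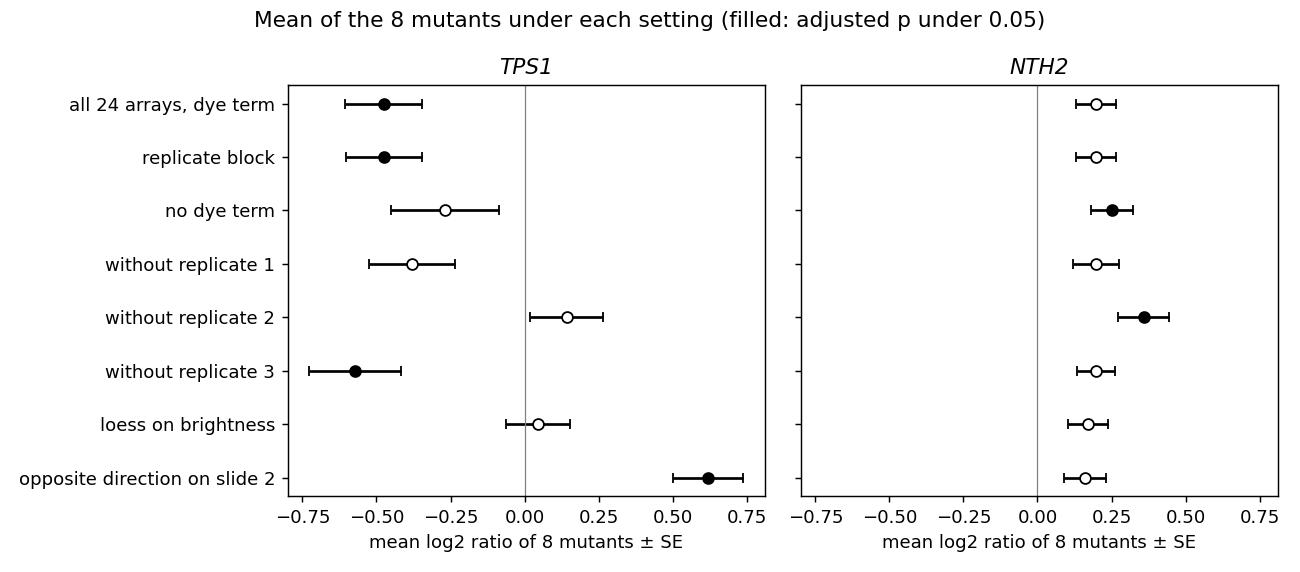
Mean log2 ratio of the 8 mutants with its SE (x axis) for TPS1 and NTH2 under 8 settings of the processing (y axis), filled where the adjusted p was under 0.05. TPS1 runs from -0.57 without replicate 3 to 0.62 with slide 2 turned, and NTH2 from 0.16 to 0.36 in these settings. They do not include the floor for spots at or below 0, which touches 1 spot of NTH2 and put its mean at -0.04.

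By slide, the mean of TPS1 over the 8 arrays was -0.05 on slide 1, -1.09 on slide 2 and 0.33 on slide 3. The fitted mean of the mutants weighs slide 2 as much as slides 1 and 3 together, and the SE does not hold the spread between slide 2 and the others. Without slide 2 the mean was 0.14 (adjusted p = 0.406), and without slide 1 it was -0.38 (adjusted p = 0.116). With the arrays labelled M1, PR-438, PG-259 and PY-231 replicate 1 left out, a choice made after seeing the data, it was -0.48 (adjusted p = 0.0295). TSL1 had slide means of -0.34, -0.42 and 0.09, and its fitted mean of -0.27 ± 0.13 did not pass (adjusted p = 0.148). TPS2 at -0.14 ± 0.086 and NTH1 at -0.11 ± 0.085 did not pass either (adjusted p = 0.294 and 0.423).

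The number of members above 0 differed between mutants. M1 had all 7 fitted values below 0, with a median of -0.29, and 4 members (all of the synthase complex) below 0 on each of its arrays, where 10.6% of genes measured on all arrays were below 0 on all 3. PR-438 had 6 of 7 above 0, with a median of 0.31, and 4 members (TPS3, NTH1, NTH2 and ATH1) above 0 on each array, where 20.7% of genes were. PY-231 had all 7 above 0, but with a median of 0.12 and no fitted value beyond 0.32. The medians were -0.32 in PG-259, -0.21 in PG-132, -0.18 in PG-353, -0.18 in PR-338 and 0.03 in PR-164, and the median of all genes lay between -0.053 and 0.023 in every mutant. The low values of M1 changed with the direction taken for slide 2 and with the loess on brightness. Turning slide 2 would give the mating genes of M1 opposite signs on slides 2 and 3. With slide 2 turned M1 was at -0.08 for TPS1, 0.09 for TPS2 and -0.02 for TSL1. After the loess these values were -0.29, -0.37 and -0.50, and TPS2 and TSL1 were below 0 on all 3 arrays of M1 while TPS1 and TPS3 were not. Without slide 1 the value of M1 was -0.77 for TPS2, -0.70 for TSL1 and -0.62 for TPS1, and that of PR-438 was 0.44 for NTH2, 0.47 for ATH1 and 0.40 for NTH1 but -0.01 for TSL1.

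Among the 4 mutants with the DsRed reference no member differed by moderated F test. NTH1 had the lowest unadjusted p, 0.0242 (adjusted p = 0.869), and TPS2 and NTH2 had 0.0777 and 0.0749 (adjusted p = 0.916 each). limma called 0 genes of 4069 in that test and 226, or 5.55%, had an unadjusted p under 0.05. Among the 3 mutants with the GFP reference the lowest adjusted p of a member was above 0.99, with 0 genes called and 41, or 1.01%, at an unadjusted p under 0.05. The mean of the DsRed mutants minus that of the GFP mutants ran from -0.06 ± 0.14 for NTH2 to 0.21 ± 0.17 for NTH1, and none passed (lowest adjusted p = 0.826). limma called 0 genes there, with 247, or 6.07%, at an unadjusted p under 0.05. In that contrast lineage and reference strain cannot be told apart.

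Across arrays several of these genes had correlated ratios, with all 8 mutants pooled. After the mean of each slide was taken out, TPS2 and TSL1, the phosphatase and a regulatory subunit of 1 complex, correlated at r = 0.871 over 24 arrays (Spearman 0.817), and within slides 1, 2 and 3 at 0.928, 0.801 and 0.922. ATH1 correlated with TPS2 at 0.704 and with TSL1 at 0.658, and TPS3 with TSL1 and with NTH1 at 0.682 each. TPS1 was at 0.55 with TSL1 and 0.504 with TPS2, but at 0.042 with NTH2 and -0.058 with ATH1. NTH2 was at 0.653 with NTH1 and at 0.369 or less with the other members. The median of the 21 pairs was 0.504, beside 0.003 for 508536 pairs of other genes, of which the central 90% lay between -0.481 and 0.514. After the loess on brightness TPS2 and TSL1 were at 0.870 and ATH1 was at 0.831 with TPS2 and 0.816 with TSL1, while TPS1 with ATH1 turned to 0.30. Without slide 1 TPS2 and TSL1 were at 0.840, TPS3 with TSL1 at 0.694, TPS3 with NTH1 at 0.693 and NTH1 with NTH2 at 0.643. ATH1 was then at 0.663 with TPS2 and 0.524 with TSL1. TPS1 fell to 0.422 with TSL1, 0.33 with TPS2, -0.076 with NTH2 and -0.301 with ATH1. Within slides 1, 2 and 3 NTH1 with NTH2 was at 0.704, 0.249 and 0.793. All these correlations keep PR-338 replicate 3, where the probes of 3 members differed by more than 1, and none is given without it. These are descriptions: the points share slides, and arrays of a lineage share a reference strain, so no p is given.

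**Figure D4:**
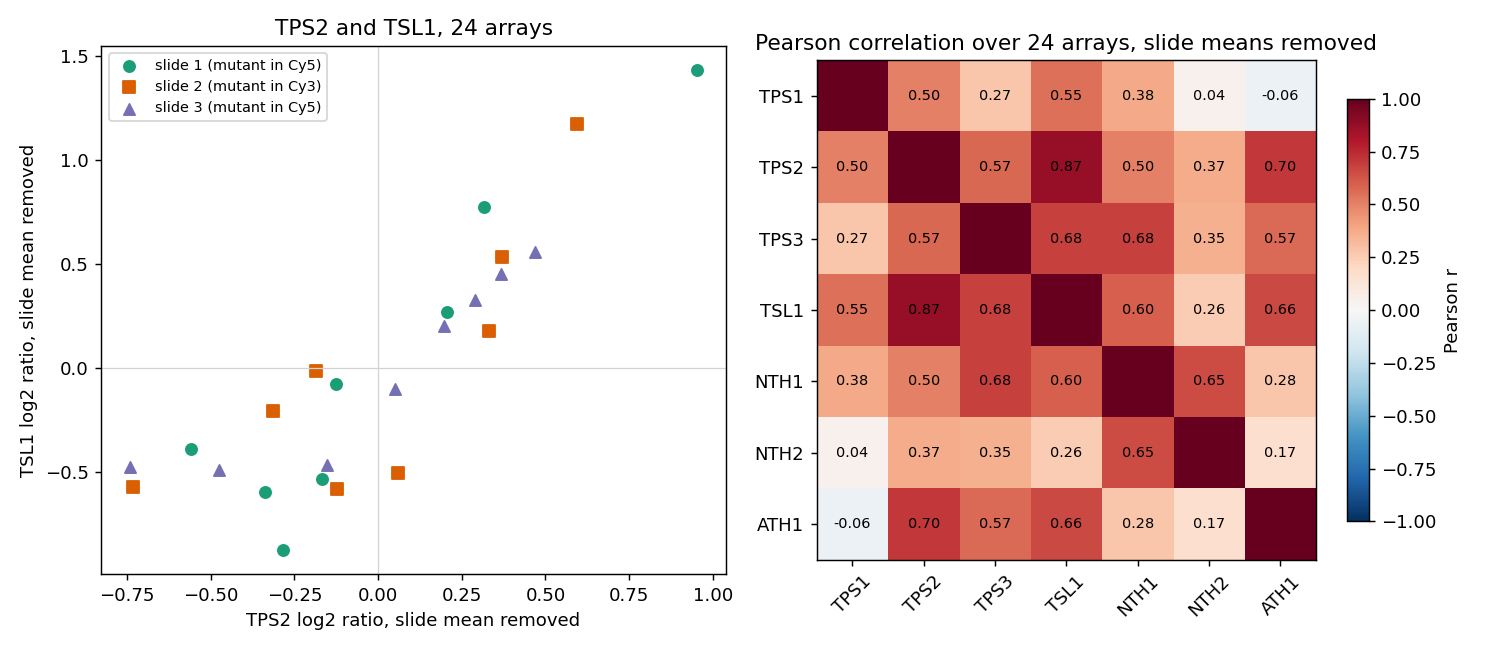
Left, log2 ratios of TSL1 (y axis) against TPS2 (x axis) on 24 arrays after removal of each slide's mean, marked by slide. Right, Pearson correlation of each pair of the 7 genes on the same values, where TPS2 and TSL1 have the highest value, 0.87, and TPS1 with ATH1 the lowest, -0.06.

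The 3 genes most like each member were found by Pearson correlation over the 24 arrays, PR-338 replicate 3 included, slide means taken out. TPS1 was most like BDH1, a butanediol dehydrogenase (r = 0.884), MCR1, a mitochondrial cytochrome b5 reductase (0.875), and PGM2, the phosphoglucomutase that leads to UDP-glucose (0.867). These 3 were bright as well, at the 89.8th, 97th and 94.2nd percentile. TPS2 was most like CSR2 (0.914), MRK1, a glycogen synthase kinase 3 homolog (0.873), and MPM1, a mitochondrial membrane protein (0.872). TSL1 was most like SDS24 (0.903), the multidrug transporter gene PDR15 (0.901) and GUT2, the mitochondrial glycerol-3-phosphate dehydrogenase (0.883). TPS3 was most like CMP2, a calcineurin catalytic subunit (0.769), GLC3, the glycogen branching enzyme (0.767), and GPD1, the glycerol-3-phosphate dehydrogenase of glycerol synthesis (0.757). ATH1 was most like PFK26, a 6-phosphofructo-2-kinase (0.890), ECM18 (0.883) and ATO2 (0.874). ECM18 and ATO2 were dim like ATH1, at the 14.5th and 6.9th percentile of brightness, and PFK26 was at the 49.8th. NTH1 was most like RPR2, a subunit of RNase P (0.855), the protein kinase gene KIN1 (0.841) and HSP30, a stress protein of the plasma membrane (0.838). HSP30 was also among the genes most like NTH2, at 0.720, beside SKO1, a repressor in the osmotic stress response (0.730), and RGA2 (0.683). Within slides 1, 2 and 3 NTH2 was at 0.201, 0.765 and 0.854 with SKO1 and at 0.226, 0.538 and 0.83 with RGA2, so these 2 were weak on slide 1.

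Genes around the pathway were not called in any single mutant. The counts below stand beside 13.3% of all genes called in the mean of the 8 mutants, 11.2% lower. In the mean of the 8 mutants 2 of the 6 genes that supply the precursors were called lower, UGP1, the UDP-glucose pyrophosphorylase, at -0.86 ± 0.18 (adjusted p = 0.00249) and PGM2 at -0.65 ± 0.18 (adjusted p = 0.0193), with a median of -0.58 over the list. Without slide 2 these were at 0.54 and 0.09, and after the loess at -0.27 and -0.08 (adjusted p = 0.188 and 0.794). Of 8 glycogen genes 1 was called, the glycogen synthase GSY2 at -0.67 ± 0.16 (adjusted p = 0.00831), and the median was -0.08. GSY2 was at 0.40 without slide 2 and at -0.11 after the loess (adjusted p = 0.116 and 0.576). Of 14 general stress genes of the Msn2 and Msn4 type, 2 were called, the small heat shock gene HSP12 at -0.80 ± 0.24 and DDR2 at -0.67 ± 0.19 (adjusted p = 0.0291 and 0.0232), with a median of -0.29. Without slide 2 they were at 0.37 and 0.48 (adjusted p = 0.372 and 0.169), and after the loess at -0.31 and -0.09 (adjusted p = 0.487 and 0.772). Of 17 measured genes of signalling and transcriptional control 1 was called, BMH1, a 14-3-3 protein of the kind that binds and activates Nth1, at -0.99 ± 0.16 (adjusted p = 0.000195). BMH1 was at -0.50 after the loess (adjusted p = 0.0128) and at 0.43 without slide 2 (adjusted p = 0.143). With slide 2 turned all 6 called genes were above 0, from 0.75 for PGM2 to 1.42 for BMH1. The median of the signalling list was 0.06, and that of all genes 0.0041. By mutant, the general stress genes had a median of 0.33 in PR-438 and -0.74 in PG-132, and the glycogen genes 0.44 in PR-438 and -0.50 in M1, beside 0.31, -0.21 and -0.29 for the trehalose genes in PR-438, PG-132 and M1.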

How the data were processed

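Competitive hybridisation on 2-colour arrays measured 8 adapted mutants, each against a fluorescent reference strain, with 3 arrays per mutant. The table that the authors deposited gives a linear ratio for each spot, which is another unit than a normalised log ratio. That the ratio is of both channels after background subtraction, unscaled between arrays, was read from the values. Per the labels the scans went into GenePix result files. Other steps by the authors are not given in the sources used here. Ratios at or below 0 were left out. From log2 of the rest the median over named probes was subtracted, array by array. The probes of a gene were averaged. Of 15744 probes 8152 carried 1 symbol, brought to current names of the R64 catalogue (129 of 4073 symbols through a synonym, 4 unmatched and kept as given), and 4069 genes were tested.

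The lmFit and eBayes functions of limma 3.58.1 (R 4.3.3, with version 1.17.8 of the data.table package) fitted 24 arrays, with 1 coefficient for each mutant and another for the dye. Fits without slide 2 had no coefficient for the dye. Only slide 2 had the mutant in Cy3, so the dye coefficient cannot be told apart from an effect of that slide. Genes were called at a Benjamini-Hochberg adjusted p under 0.05 over all genes. The fit was tested on simulated data. Tables and plots were made with matplotlib 3.10.9, numpy 2.4.6 and pandas 2.3.3 under Python 3.11.15. Brightness was estimated from the whole numbers of each ratio's quotient, with denominators up to 10000, as the median over arrays. The quotient was recovered for 82.63% to 99.99% of spots by array. The other spots were set to 1 high value of their array, so brightness near the top is partly assigned. Signal strength and the number of arrays stand in for depth.

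The labels tie a replicate number to a slide, so the number pairs the arrays. Deviations of arrays on 1 slide correlated at a median of -0.029 over 84 pairs. The named genes are the 7 members, the 3 genes most like each by correlation, and, in 4 lists around the pathway, genes called in a comparison. Members and lists were chosen with earlier results of these data known. Alternatives covered slide direction, dye term, slide block, each slide and several arrays left out, loess on brightness, scaling, centring, floor, probes, dim spots, genes and arrays fitted. Sequences were not used here.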

Additional observations from a re-analysis of the deposited data

Results flagged for a closer look

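In 5 cases all 3 arrays of 1 mutant lay above 0 and all 3 of another below it. Each case counts a slide 1 array that stands apart, PY-231 replicate 1 for TPS2 and PR-438 replicate 1 for TPS3 and NTH1. The cases against M1 also count M1 replicate 1. TPS2 was higher in PY-231 than in M1 by 0.85 ± 0.32 (limma, adjusted p = 0.389) and than in PG-132 by 0.41 ± 0.32 (adjusted p = 0.833). TPS3 was higher in PR-438 than in M1 by 0.35 ± 0.21 (adjusted p = 0.488) and than in PR-338 by 0.33 ± 0.21 (adjusted p = 0.997). NTH1 was higher in PR-438 than in PR-338 by 1.01 ± 0.32 (adjusted p = 0.997). The tests of these differences, in the fit of all arrays, did not pass, and each called 0 genes. Of the 56 combinations of member and mutant 9 had all arrays above 0 and 8 had all below, and over genes measured on all arrays the shares were 13.1% and 11.9%. These shares are for 1 mutant on 1 side of 0. How often 2 mutants are opposed in this way over all genes was not counted, so the 5 cases have no such rate beside them. PY-231 has another reference than M1 and PG-132, so in the first 2 values mutant and reference cannot be told apart.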

How the results depend on the processing

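The number of arrays and the disagreement between slides limit these results. Over the 56 combinations of member and mutant, no member was called in a single mutant under any alternative except the opposite direction on slide 2, which called 1: TPS1 in PG-132 at 1.06 (adjusted p = 0.0365). That direction called 1489 gene and mutant combinations over all genes in place of 59, and changed the sign of 29 of the 56 values. The sign changed in 13 without replicate 2, where no dye term was fitted, in 7 without replicate 1, in 6 without replicate 3 and in 9 after the loess. In the mean of the 8 mutants TPS1 turned to 0.62 with the opposite direction (adjusted p = 0.000476) and to 0.0457 after the loess, with or without a replicate block, and to 0.14 after the loess without replicate 1. Leaving out a slide put TPS1 between -0.57 and 0.14. The number of members called there was 0 after the loess (also with the replicate block, or without replicate 1) and 0 to 1 when a slide was left out: 0 without replicate 1, NTH2 without replicate 2 and TPS1 without replicate 3. It was 2, TPS1 and NTH2, with scaling between arrays, with centring on all probes, with dim spots left out and without PR-338 replicate 3. Of 4069 genes these settings called 749, 534, 550 and 470 in that mean, beside 540 in the main fit. Without replicate 2, 1189 genes were called, and with the opposite direction 1287. Without the dye term 1 member was called, NTH2 (adjusted p = 0.0435), in place of TPS1 at -0.27 (adjusted p = 0.348), beside 236 genes. The replicate block left TPS1 at -0.48 (adjusted p = 0.0181), changed no call of a member, and called 122 gene and mutant combinations over all genes in place of 59. With spots at or below 0 set to the lowest ratio, which touches 1 spot of NTH2, that gene was at -0.04 (adjusted p = 0.905). No member was called among the DsRed mutants, among the GFP mutants or between them under any alternative run. Leaving out PR-338 replicate 3 or the doubted arrays of slide 1, and combining the loess with the block or without replicate 1, were chosen after seeing the data. The cause of these changes was not tested.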
